A study of Ovis aries with 6 samples.

Results

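The 37 cell cycle genes described here are 15 genes of the S phase, in which DNA is copied, and 22 genes of the G2 and M phases, in which the cell prepares for division and divides. They were taken as a given list of known cell cycle genes, with earlier results of these data known, and all 37 were found among the 30574 genes of the deposited tables. The S genes are PCNA, MCM2, MCM3, MCM4, MCM5, MCM6, MCM7, TYMS, DUT, RRM1, RRM2, CDC6, CDT1, PCLAF and ESCO2. The G2/M genes are MKI67, TOP2A, CDK1, CCNB1, CCNB2, CCNA2, UBE2C, BIRC5, CENPF, CENPE, CDC20, DLGAP5, KIF11, KIF20A, KIF23, AURKA, AURKB, BUB1, BUB1B, PLK1, TPX2 and NUSAP1.

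A dividing cell first licenses its replication origins with the MCM helicase, copies its DNA with the clamp PCNA and nucleotides made by TYMS and RRM2, and then builds the spindle under the kinase CDK1 and its cyclins. Transcripts of these genes are made mainly in cells that divide, so that they mark dividing cells in a mixed tissue. In the ovary, granulosa cells multiply as a follicle grows, while the theca, the stroma and the vessels around the follicle are remodelled in each oestrous cycle.

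The samples were single-cell libraries of 1 ovary from each of 6 adult Hu ewes, a prolific sheep breed. The HLS group held 3 ewes with a litter size of at least 3, and the LLS group held 3 ewes with a litter size under 2. All ewes were in oestrus, and the whole ovary was digested with collagenase and trypsin, so that follicles of all sizes were mixed in 1 library. In the droplet assay each RNA molecule is counted once through its unique molecular identifier (UMI), and each barcode stands for 1 droplet and mostly for 1 cell.

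The libraries held 43329214 to 75549906 UMI, and 36457 of 52290 barcodes were retained after filtering and removal of 2007 called doublets. Median depth per retained barcode lay between 5182 and 9638.5 UMI. Of the barcode sequences that passed the filters, 156 occurred in more than 1 library, and the median correlation of their profiles was 0.545, against 0.534 for different barcodes of different libraries. Clustering without the cell cycle genes gave 29 clusters, of which 19 were called granulosa-like, theca-like, stromal-like, perivascular-like, endothelial-like or immune-like from marker genes. The variable genes and components behind the clusters were set on the 18727 retained barcodes without any UMI of the G2/M genes, so that these genes had a part in them. Because the types were rebuilt here, some cells may carry another name than in the study. Granulosa-like cluster 12 had none of the granulosa markers among its 10 leading genes, and 2072 and 2767 of the 4931 cells of endothelial-like cluster 0 came from HLS ewe 2 and LLS ewe 1.

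A barcode was called cycling when it held at least 3 UMI over the 22 G2/M genes after every barcode had been thinned at random to 2000 UMI, so that deeper barcodes were not called more often for their depth. Of 34749 barcodes of the 6 types, 3174 were shallower and were left out. These were 342 granulosa-like, 11 theca-like, 817 stromal-like, 515 perivascular-like, 913 endothelial-like and 576 immune-like barcodes. Of the 31575 others, 1999 (6.33%) were cycling. Most of these lay well above the limit, as 1570 (78.5%) held at least 5 G2/M UMI, while 1143 barcodes held 2 or 3 and so lay next to it. Barcodes that were not cycling held a mean of 0.194 to 0.258 G2/M UMI in the 6 types.

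Cycling barcodes were found in all 6 types and in every ewe. Granulosa-like barcodes had the highest mean share over ewes, 7.36% ± 4.79 (SD, n = 6), followed by theca-like (6.75% ± 4.85), stromal-like (6.35% ± 4.61) and endothelial-like barcodes (5.53% ± 3.14). Perivascular-like (4.54% ± 3.61) and immune-like barcodes (3.32% ± 1.5) had the lowest. The spread over ewes within a type was as wide as the distance between types, and no neighbours in this order differed beyond it. Without thinning, and with the shallow barcodes kept, the shares were 14.7%, 26.5%, 12.6%, 15.2%, 10.2% and 6.64% in the same order, with the deep theca-like barcodes first. The order also moved with other settings. Thinned to 4000 UMI, with the limit kept at 3 UMI, the mean was 14.7% for perivascular-like and 11.5% for stromal-like barcodes. All barcodes under 4000 UMI were then left out, while perivascular-like barcodes that were not cycling had a median depth of 3882.5 UMI. The mean was 1.52% for theca-like barcodes when the components were made from all barcodes with the cycle genes.

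Granulosa-like barcodes, the cells that surround the oocyte and make oestradiol, had cycling shares of 1.89%, 16.0% and 7.32% for HLS ewes 1, 2 and 3, and of 6.40%, 8.18% and 4.37% for LLS ewes 1, 2 and 3. HLS held both the lowest and the highest ewe, and the groups overlapped. The lowest, HLS ewe 1, had 5 cycling of 264 barcodes. Without cluster 12 the mean was 11.3%, an alternative chosen after seeing the data.

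Theca-like barcodes, which make androgens, had shares of 3.35%, 5.65% and 9.65% in HLS and of 3.45%, 3.13% and 15.3% in LLS. The shares of HLS ewe 1, LLS ewe 1 and LLS ewe 2 rest on 6 of 179, 2 of 58 and 3 of 96 barcodes. Stromal-like barcodes gave 2.95%, 6.20% and 7.98% in HLS and 1.95%, 4.40% and 14.6% in LLS. In both types LLS ewe 3 was highest, HLS ewe 3 was second, and the groups overlapped.

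Endothelial-like barcodes, which line the vessels, had shares of 2.54%, 6.54% and 5.14% in HLS and of 11.1%, 2.61% and 5.29% in LLS. LLS ewe 1 was highest, with 419 of 3785 barcodes. The mean without cluster 0, which came mostly from LLS ewe 1 and HLS ewe 2, was 3.60%, and this alternative was also chosen after seeing the data. Perivascular-like barcodes gave 3.19%, 3.02% and 3.72% in HLS and 5.99%, 0.377% and 10.9% in LLS, so that the HLS ewes lay close together between the extremes of LLS. Immune-like barcodes gave 1.16%, 5.58% and 2.62% in HLS and 4.23%, 2.84% and 3.46% in LLS, the narrowest range of the 6 types. The lowest values rest on few barcodes, 1 cycling of 265 perivascular-like in LLS ewe 2 and 2 of 172 immune-like in HLS ewe 1.

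**Figure D1:**
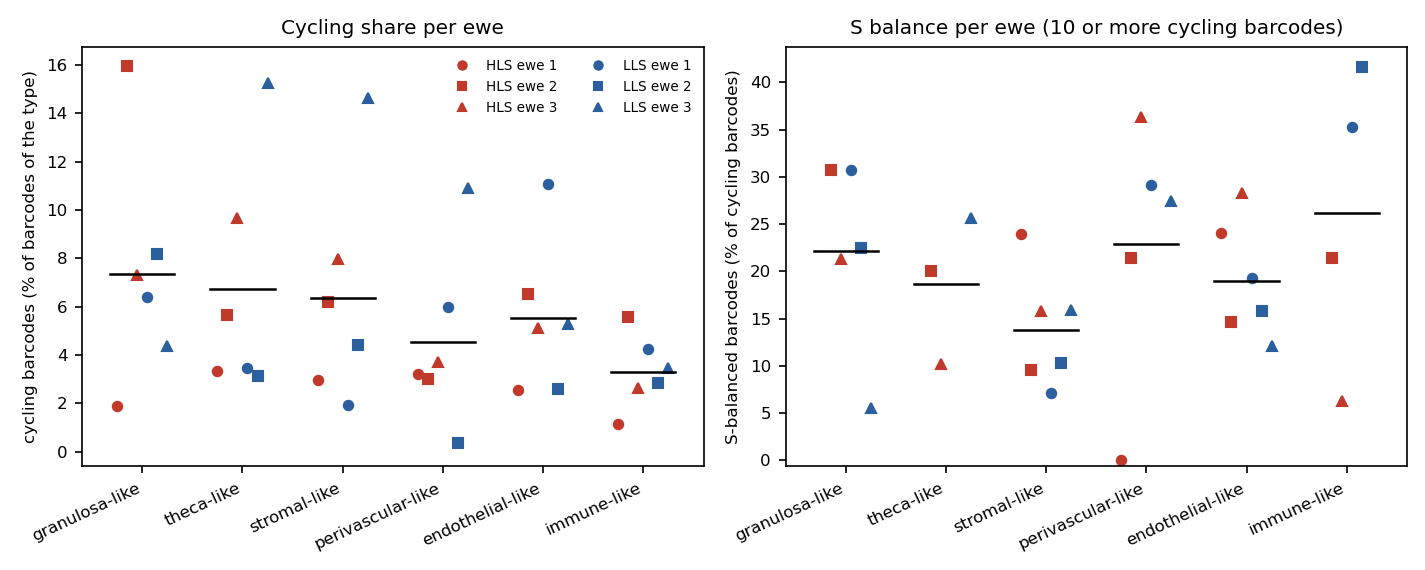
The left panel plots the percent of barcodes of each type that were cycling, 1 point per ewe (red HLS, blue LLS, shape for the ewe number) with the mean over ewes as a line. The right panel plots the percent of cycling barcodes with more S than G2/M UMI in ewes with at least 10 cycling barcodes. In the left panel points of both groups are mixed in every type. The highest theca-like, stromal-like and perivascular-like points there are all LLS ewe 3. In the right panel the immune-like LLS points (35.3% and 41.7%) lie above the HLS points (21.4% and 6.25%). The theca-like point of LLS ewe 3 (25.6%) lies above those of HLS (20% and 10.3%).

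None of the 15 pairs of types passed the test of the within-ewe difference (two-sided exact sign-flip test over 6 ewes, adjusted over the pairs), which a single pair could not pass at this number of ewes. The smallest p that 6 ewes allow, 0.03125, was reached between granulosa-like and immune-like barcodes, where the difference was 4.04 ± 3.65 percentage points (SD of the within-ewe difference) and was positive in 6 of 6 ewes, with an adjusted p of 0.469 in this exact test. Endothelial-like exceeded immune-like barcodes by 2.21 ± 2.45 percentage points in 5 of 6 ewes (exact p = 0.0625, adjusted 0.469). Theca-like and stromal-like shares differed by 0.394 ± 1.15 percentage points, the smallest spread of any pair over the same ewes.

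Whether HLS and LLS ewes differ was asked next, the comparison for which the study was made. The HLS mean exceeded the LLS mean by 2.08 percentage points for granulosa-like barcodes (8.40% against 6.32%). HLS minus LLS was -1.06 for theca-like, -1.28 for stromal-like, -2.45 for perivascular-like, -1.59 for endothelial-like and -0.392 for immune-like barcodes. With 3 ewes against 3 the two-sided exact permutation test cannot go below p = 0.1, and p was 0.8, 0.9, 0.9, 0.6, 0.6 and 0.8 in this order, with an adjusted p of 0.9 in all 6. Each difference changed sign when 1 ewe was left out. It was -1.71 in granulosa-like barcodes without HLS ewe 2, and without LLS ewe 3 it was 2.93 for theca-like, 2.54 for stromal-like and 0.130 for perivascular-like barcodes. It was 0.787 in endothelial-like barcodes without LLS ewe 1 and 0.586 in immune-like barcodes without HLS ewe 1, and the theca-like and stromal-like differences were also positive without HLS ewe 1, at 0.372 and 0.0970. The granulosa-like difference was 0.954 without cluster 12, and the endothelial-like one was -0.741 without cluster 0.

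Within a type the cycling barcodes were spread unevenly over its clusters. The clusters were made from these cells, so that these shares are given as a description, with 95% Wilson intervals that cover counting error only. Stromal-like cluster 4, led by COL1A1, LUM and PTCH1, held 481 cycling of 2860 barcodes (16.8%, interval 15.5 to 18.2), with 9.20% to 23.5% in the 6 ewes. Stromal-like cluster 1, led by DCN and PTN, held 32 of 3628 (0.882%, 0.63 to 1.24), and its highest ewe had 2.08%. Stromal-like cluster 7, led by SERPINF1, held 2 of 1465 (0.137%, 0.0374 to 0.496) at a median depth of 5273 UMI. The part of free RNA in these shares was not tested.

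Granulosa-like barcodes showed the same kind of split. Cluster 8, led by IGFBP2 and CDH2, held 138 cycling of 1412 barcodes (9.77%, 8.33 to 11.4), and the shallower cluster 18 held 61 of 284 (21.5%, 17.1 to 26.6). The 284 barcodes were those deep enough for thinning among 471 cells of cluster 18, against 1412 among 1492 in cluster 8. The share of cluster 18 is thus that of its deeper barcodes only, and it cannot be set directly against that of cluster 8. In the 6 ewes cluster 8 ran from 4.55% to 17.1% and cluster 18 from 0% to 30%. Cluster 12, led by TIMP1 and PLIN2, held 3 of 912 (0.329%, 0.112 to 0.963) although its median depth was 12297.5 UMI. Its shares in the 6 ewes ran from 0 to 0.778%.

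Among endothelial-like clusters the share was 14.8% (208 of 1403) in cluster 9, led by COL4A1, and 11.9% (583 of 4899) in cluster 0, led by COL15A1 and ESM1. It was 0.749% (31 of 4138) in cluster 2, led by ABCG2 and CA4, and 4.23% (31 of 733) in cluster 15, led by the lymphatic gene MMRN1. ABCG2 also led cluster 3, with 2.3% (71 of 3092), and the shallow cluster 13, with 11.5% (33 of 287). The share of cluster 13 is that of its deeper barcodes only, and it cannot be set directly against those of clusters 2 and 3. Cluster 13 held 857 cells, most of them too shallow for thinning, and its share ran from 4.55% to 14.7% in the 6 ewes. Over single ewes the share ran from 3.77% to 30.3% in cluster 9 and from 0.488% to 14.6% in cluster 15. It ran from 0.466% to 2.34% in cluster 2 and from 9.06% to 60% in 5 ewes in cluster 0. HLS ewe 1, LLS ewe 2 and LLS ewe 3 had only 22, 34 and 30 cells in cluster 0, and the 60% is that of LLS ewe 3. Perivascular-like cluster 10, led by the pericyte gene RGS5, held 96 of 1316 (7.29%), and cluster 11, in which the smooth muscle gene MYH11 was a leading gene, held 4 of 788 (0.508%). Cluster 10 ran from 0.495% to 16.7% and cluster 11 from 0% to 2.17% in the 6 ewes. In immune-like clusters the share was 3.66% (42 of 1149) where the T cell gene CD3E was a leading gene and 3.31% (27 of 815) where TYROBP was, and cluster 23 held 0 of 125, which allows a share of up to 2.4%.

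**Figure D2:**
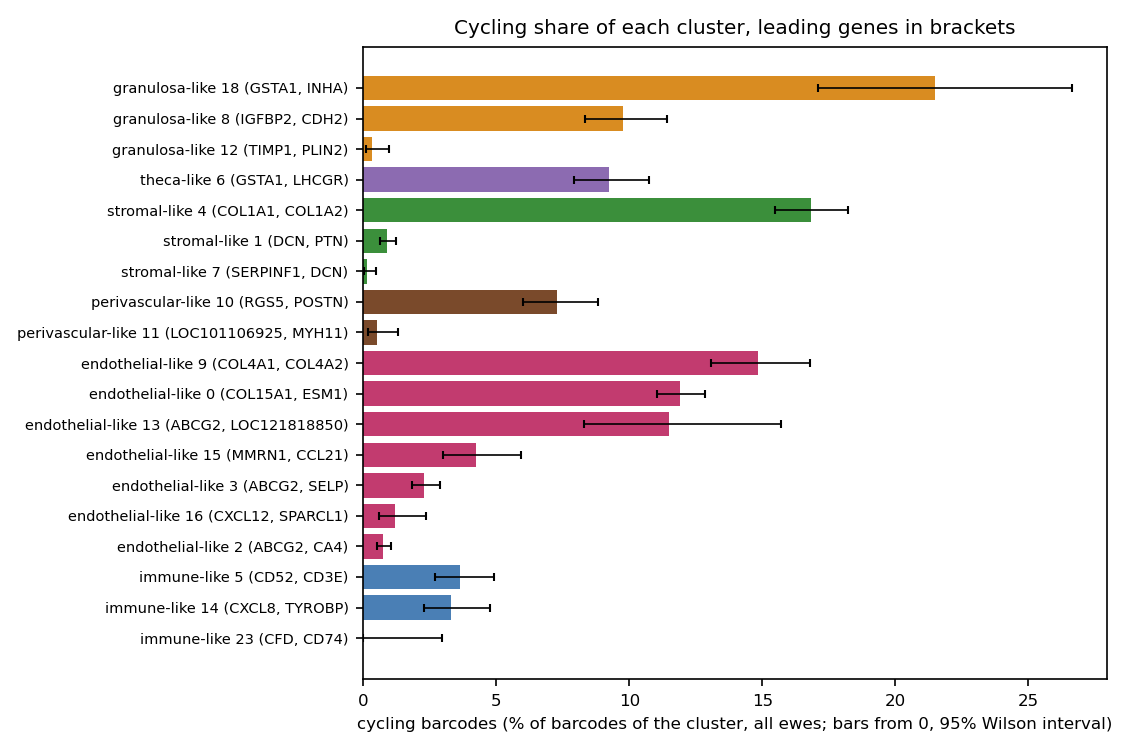
The bars give the percent of cycling barcodes in each of the 19 clusters over all ewes, coloured by type, and the whiskers give 95% Wilson intervals. Granulosa-like, stromal-like, perivascular-like and endothelial-like barcodes each hold a cluster under 1% beside a cluster over 7%.

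Cycling barcodes were deeper than the others before thinning. Median depth was 12534 against 9067 UMI for granulosa-like, 19058 against 16183.5 for theca-like and 13652 against 5678.5 for stromal-like barcodes. It was 14455.5 against 3882.5 for perivascular-like, 15731 against 8846.5 for endothelial-like and 6891 against 3616 for immune-like barcodes. Before doublets were removed, 11.2% of 2337 cycling barcodes and 5.28% of 32388 other barcodes were called doublets. The part of doublets in the cycling share was not tested.

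The balance of S and G2/M genes was read as the share of cycling barcodes with more UMI of the 15 S genes than of the 22 G2/M genes, called the S share here. It is a balance of UMI and not a count of cells in a phase, and barcodes with S genes only are not among those called cycling. It also leans on 1 gene, DUT, which had a mean of 2.01 (theca-like) to 2.99 (granulosa-like) UMI per cycling barcode. No other S gene had a mean above 0.683 UMI in any type. In barcodes that were not cycling DUT had a mean of 0.195 (immune-like) to 0.473 UMI (theca-like). Pooled over ewes the S share was lowest for stromal-like barcodes (14.8%), followed by endothelial-like (17.6%), theca-like (20.3%), immune-like (23.2%), granulosa-like (23.3%) and perivascular-like barcodes (25%). The mean over ewes gave another order, from stromal-like (13.8%) over theca-like (18.6%), endothelial-like (19.0%), granulosa-like (22.2%) and perivascular-like (22.9%) to immune-like barcodes (26.2%), over 3 to 6 ewes. The spread over ewes was wide, with 5.56% to 30.8% in granulosa-like and 0% to 36.4% in perivascular-like barcodes of 5 ewes each. None of the 14 pairs of types with at least 3 ewes passed the exact sign-flip test. At these numbers of ewes no pair could pass it after adjustment, so that it cannot decide whether types differ. The pair over most ewes with the smallest p was stromal-like against endothelial-like, with -5.25 ± 6.49 percentage points and a lower value in stromal-like barcodes in 5 of 6 ewes (exact p = 0.09375, adjusted 0.778).

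In stromal-like barcodes the S share was 24%, 9.52% and 15.8% for HLS and 7.14%, 10.3% and 15.9% for LLS. In endothelial-like barcodes it was 24.1%, 14.6% and 28.3% in HLS and 19.3%, 15.8% and 12.1% in LLS. HLS minus LLS was 5.31 percentage points in the first (exact permutation p = 0.5) and 6.61 in the second (exact permutation p = 0.3), the 2 types with at least 10 cycling barcodes in all 6 ewes, and the groups overlapped in both. Without endothelial-like cluster 0 the second was 14.1 (exact permutation p = 0.1).

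Single members were found in a larger share of cycling than of other barcodes. In thinned barcodes TOP2A, the topoisomerase that untangles copied DNA, had a UMI in 81.2% of cycling and 2.49% of other granulosa-like barcodes, and in 46.4% and 2.62% of immune-like ones. MKI67, the antigen behind the Ki-67 stain, had a UMI in 63.8% of cycling and 1.04% of other endothelial-like barcodes. PCLAF, a partner of PCNA, had a UMI in 44.1% of cycling and 0.790% of other granulosa-like barcodes. PCNA itself was found more widely outside cycling barcodes, in 7.29% to 10.7% of the others of each type. The G2/M genes define the call, so that their shares are a description.

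For tests the UMI of all barcodes of 1 type in 1 ewe were summed, and levels are given as CPM, the UMI of a gene per 1000000 UMI of that sum. In such sums fewer dividing cells and less RNA per dividing cell cannot be told apart. Each type was compared with the mean of the other 5 in all 6 ewes by edgeR's quasi-likelihood test with the ewe as a block, with Benjamini-Hochberg adjustment over 14817 genes, and all 37 members passed the filter on low counts. There were 37 differences of a member in a type past an adjusted p of 0.05, and they involved 23 members. The 14 members with none were BIRC5, CCNA2, CCNB1, CCNB2, DUT, ESCO2, KIF23, MCM2, MCM5, MCM7, MKI67, PCLAF, PLK1 and TYMS. In no type was a larger share of the 37 members called higher, or called lower, than of all genes.

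In stromal-like sums 9 members were higher and 0 lower, against 26.3% of all genes higher and 22.3% lower. All 9 were G2/M genes, and all 22 G2/M genes had a log2 difference above 0, with a median of 0.59 beside 0.00 over all genes and 0.22 over the S genes. TOP2A had 87.8, 232 and 252 CPM in HLS ewes 1, 2 and 3 and 60.4, 157 and 359 in LLS ewes 1, 2 and 3. LLS ewe 1 was lowest and LLS ewe 3 highest, so that the groups overlapped. Its log2 difference from the other types was 0.89 ± 0.28 (SE, edgeR adjusted p = 0.00795). The largest differences were those of CENPF, a kinetochore protein, at 0.93, of KIF20A, a kinesin of cytokinesis, at 0.91, and of TOP2A. AURKA, a kinase of the spindle poles, followed at 0.89, and DLGAP5 (0.72), BUB1 (0.65), KIF11 (0.64), BUB1B (0.62) and NUSAP1 (0.60), which act at the spindle or its checkpoint, were the others. With HLS ewes 1, 2 and 3 and LLS ewes 1, 2 and 3 left out in turn, 3, 7, 4, 13, 3 and 4 members were higher.

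Immune-like sums had 7 members lower and 0 higher, against 34.6% of all genes lower and 32.8% higher. With library totals in place of TMM factors, which shifted the median of all genes by -0.26, 20 members were lower. The median log2 difference was -0.60 over the G2/M genes, -0.21 over the S genes and -0.08 over all genes. TOP2A had 18.1, 108 and 38.6 CPM in HLS and 72.6, 22.1 and 43.9 in LLS, and HLS held both the lowest and the highest value. Its difference was -1.24 ± 0.35 (edgeR adjusted p = 0.00221). CDC20 and AURKA at -1.16, KIF20A at -1.10, CDK1 at -0.96, CENPF at -0.87 and CENPE, a kinesin of the kinetochore, at -0.81 were also lower. In the same order of left-out ewes, 12, 8, 2, 9, 4 and 2 members were lower.

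In perivascular-like sums 7 members were higher and 0 lower, against 23.8% and 24.3% of all genes. Of the 7, 6 were S genes, and 14 of 15 S genes lay above 0, with a median of 0.26 beside -0.06 over all genes. MCM4, a subunit of the replicative helicase, had 40.3, 61.8 and 103 CPM in HLS and 83.3, 95.3 and 115 in LLS, and its difference of 1.30 ± 0.17 was the largest of any member in any type (edgeR adjusted p = 1.9e-07). HLS ewe 1 was lowest, and the groups overlapped, since HLS ewe 3 lay above LLS ewes 1 and 2. TPX2, a spindle assembly factor, was higher by 1.07, RRM2, a subunit of ribonucleotide reductase, by 1.02, and CDC6, which loads the helicase, by 0.90. MCM3 (0.55), MCM6 (0.47) and PCNA (0.41) completed the group. PCNA had 94.1, 71.6 and 85.0 CPM in HLS and 92.2, 62.0 and 166 in LLS, where LLS ewe 3 stood above the rest. In the same order of left-out ewes, 6, 8, 6, 5, 7 and 3 members were higher, and without LLS ewe 3 1 member was lower.

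In granulosa-like sums 3 members were higher and 4 lower, against 27.7% and 27.4% of all genes. With library totals in place of TMM factors, which shifted the median of all genes in granulosa-like sums by 0.14 on the log2 scale, the split was 8 higher and 2 lower. CDK1, the kinase that drives entry into mitosis, had 13.2, 30.4 and 17.6 CPM in HLS and 19.6, 17.7 and 17.1 in LLS. HLS ewe 2 was highest and HLS ewe 1 lowest. In immune-like sums CDK1 had 4.93, 7.42 and 3.95 in HLS and 6.08, 3.34 and 2.16 in LLS, below every granulosa-like value. The granulosa-like difference was 1.25 ± 0.24 (SE, edgeR adjusted p = 5.05e-05). UBE2C and CDC20, which act with the anaphase-promoting complex, were higher by 0.95 and 0.77. RRM2 at -0.92, KIF20A at -0.85, MCM4 at -0.51 and MCM6 at -0.45 were lower. In the same order of left-out ewes, 7, 1, 2, 5, 1 and 7 members were higher and 1, 7, 0, 5, 4 and 0 lower.

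In theca-like sums 6 members were lower and 0 higher, against 31.3% and 29% of all genes. They were AURKB, the kinase of the chromosomal passenger complex, at -1.02, CDT1, a licensing factor, at -0.90, TPX2 at -0.67, MCM4 at -0.66, PCNA at -0.46 and RRM1 at -0.38. PCNA had 41.3, 45.4 and 52.7 CPM in HLS and 48.0, 38.5 and 77.6 in LLS, with LLS ewe 3 apart and the groups overlapping. The number lower was 2, 2, 4, 3, 3 and 11 with the same ewes left out. In endothelial-like sums 1 member was higher and 0 lower, against 34.3% and 30.7% of all genes. It was RRM1, the large subunit of ribonucleotide reductase, with 27.9, 46.5 and 57.9 CPM in HLS and 59.2, 36.0 and 42.3 in LLS and a difference of 0.42 ± 0.14 (edgeR adjusted p = 0.0104), and it was not called without HLS ewe 3 or LLS ewe 1. None of the 22 G2/M genes was called in endothelial-like sums (1 at an unadjusted p under 0.05 by edgeR, 0 by DESeq2), and none of the 15 S genes in stromal-like or immune-like sums (0 and 0 in both).

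**Figure D3:**
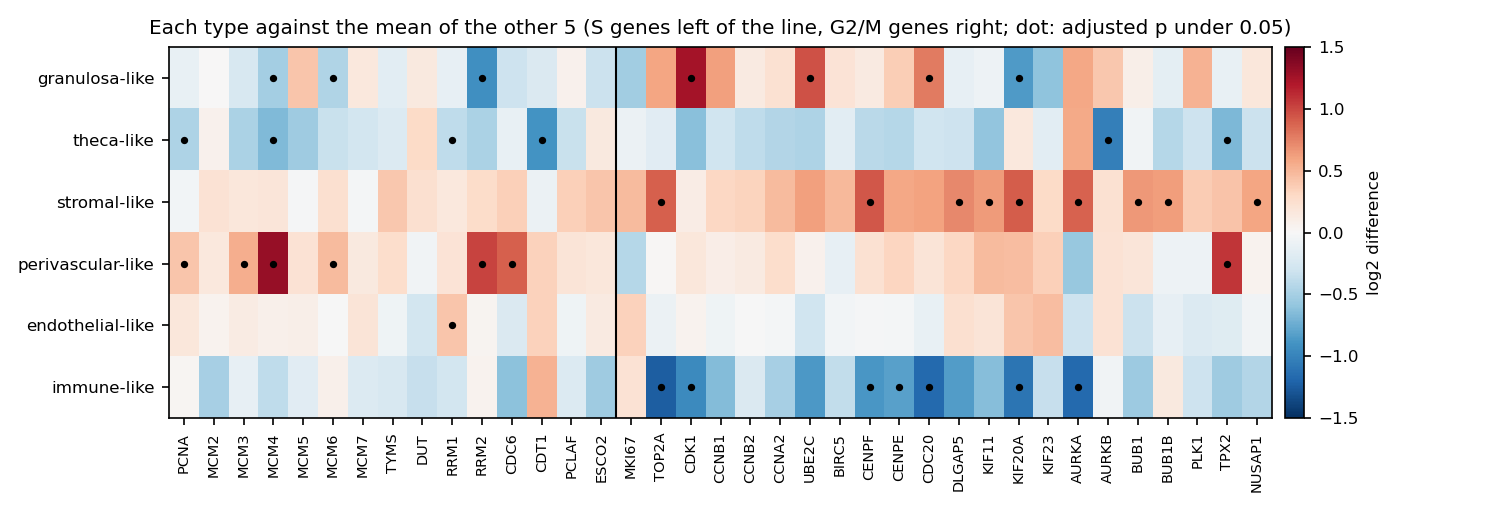
Each cell gives the log2 difference of 1 of the 37 members (columns, S genes left of the line) in 1 type (rows) from the mean of the other 5 types, with a dot where the adjusted p was under 0.05. The stromal-like row is above 0 for all 22 G2/M genes, the immune-like row is below 0 for 20 of them, and the perivascular-like dots lie mostly among the S genes.

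The other members shown in full did not pass the test in any type. MKI67 ran from 2.32 in HLS ewe 1 to 95.3 CPM in HLS ewe 2 among granulosa-like sums, with 31.1 in HLS ewe 3 and 39.3, 36.3 and 37.7 in the LLS ewes. In stromal-like sums it had 17.5, 77.1 and 86.5 in HLS and 30.4, 46.1 and 159 in LLS, and in endothelial-like sums 10.2, 70.4 and 62.3 in HLS and 133, 32.6 and 76.4 in LLS. The ewe that was highest thus changed from type to type, and HLS ewe 1 was lowest in these 3 types. CCNB1, the mitotic cyclin, had 8.77, 42.9 and 23 CPM in granulosa-like sums of HLS and 18, 18.3 and 26.0 of LLS, with the groups overlapping (log2 difference 0.61, edgeR adjusted p = 0.0509).

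TYMS, which makes thymidylate, had 16.7, 14.0 and 16.1 CPM in stromal-like sums of HLS and 12.7, 5.21 and 26.9 of LLS. PCLAF had 34.6, 22.8 and 41.8 in perivascular-like sums of HLS and 39.9, 3.87 and 95.2 of LLS. The LLS ewes held both the lowest and the highest value of both genes in these types. MCM5, another subunit of the helicase, had 16.3, 55.7 and 22.8 in granulosa-like sums of HLS and 23, 26.0 and 13.1 of LLS, with HLS ewe 2 apart from the other 5.

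**Figure D4:**
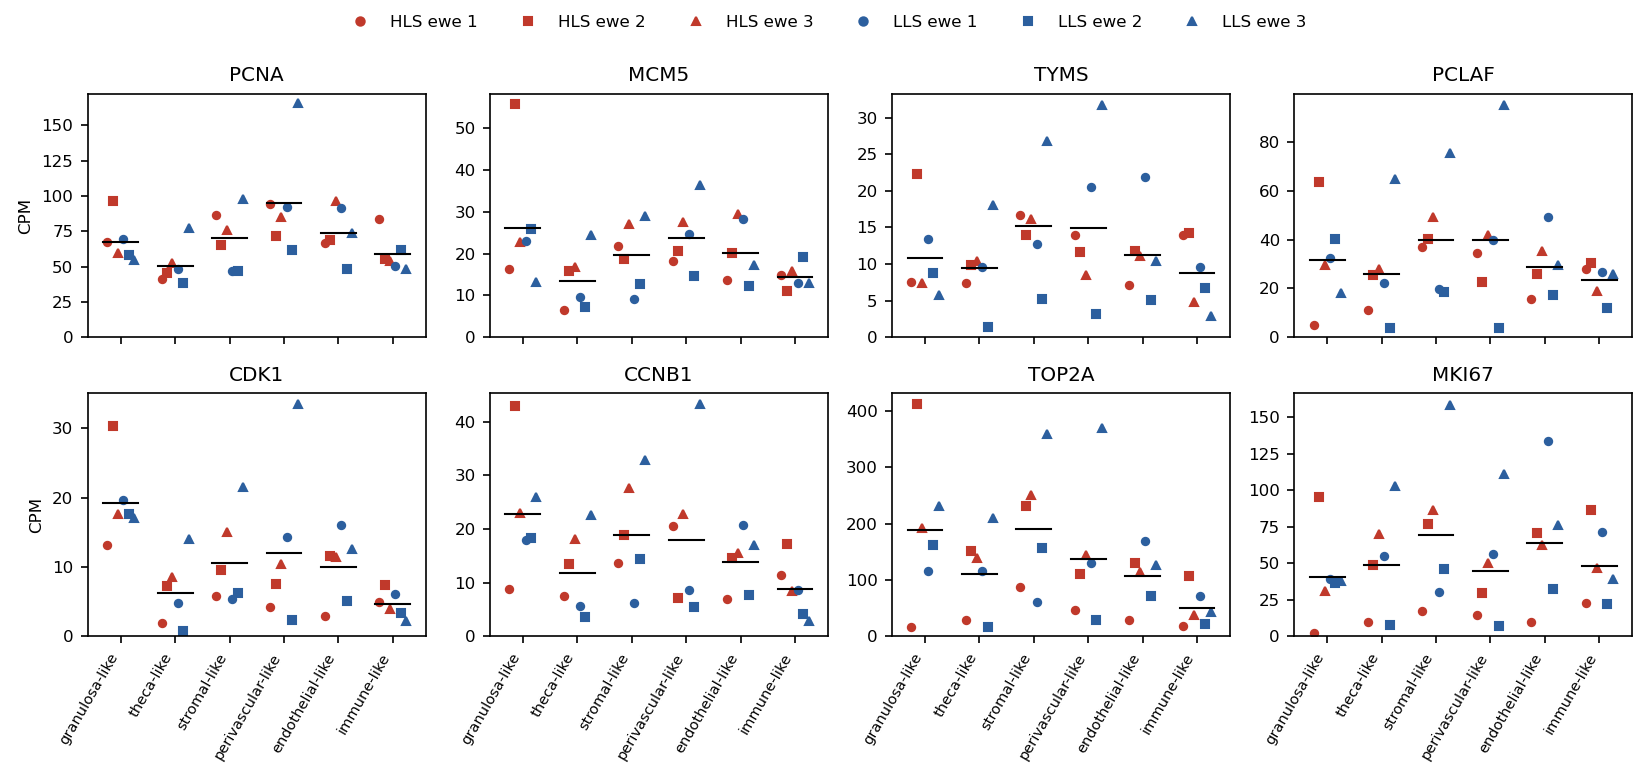
The panels plot CPM for 4 S genes (top) and 4 G2/M genes (bottom) in each type, 1 point per ewe (red HLS, blue LLS) with the mean as a line. HLS ewe 2 is the highest granulosa-like point of all 8 genes, and LLS ewe 3 is the highest theca-like, stromal-like and perivascular-like point of all 8.

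When the cycling barcodes were left out of the sums, an alternative chosen after seeing the data that uses the G2/M genes themselves, 34 of the 37 differences could be tested. Of these, 17 passed with the same sign, 14 did not pass, and 3 had the opposite sign. CDK1 in granulosa-like sums was then higher by 2.18 (edgeR adjusted p = 2.39e-09), TPX2 in perivascular-like sums by 2.14 and MCM4 in perivascular-like sums by 1.48. Of the 9 stromal-like differences TOP2A (0.52) and BUB1B (0.76) passed. In immune-like sums TOP2A (0.20), CENPF (0.55) and CENPE (0.33) changed sign and did not pass. Of all 37 differences, 9 passed without each ewe in turn, namely MCM4, RRM2 and TPX2 in perivascular-like, CDK1 in granulosa-like, MCM4 in theca-like, AURKA and KIF20A in stromal-like and AURKA and TOP2A in immune-like sums.

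Other genes of the cycle, measured in the same sums, gave counts beside the same shares of all genes. Of 29 other S genes, 11 were higher and 3 lower in perivascular-like sums, led by GINS2 (1.64), a part of the replicative helicase, and GMNN (1.45), which blocks relicensing. In immune-like sums 2 were higher and 10 lower, with GINS2 at -2.43. The counts were 5 and 5 in granulosa-like, 1 and 5 in theca-like, 3 and 1 in stromal-like and 7 and 2 in endothelial-like sums. Of 35 other G2/M genes, 12 were higher and 2 lower in stromal-like sums, led by PSRC1 (1.08) and PIMREG (0.82). In theca-like sums 3 were higher and 11 lower, and in immune-like sums 6 and 14. The counts were 4 and 4 in granulosa-like, where STMN1, which destabilises microtubules, was higher by 2.01, 6 and 6 in perivascular-like and 5 and 9 in endothelial-like sums.

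Genes that set the entry into the cycle were measured in the same sums, and the shares of all genes called stand above. CCND1, a cyclin of G1, was higher in perivascular-like sums by 4.03 and in endothelial-like sums by 2.71, and it was at -3.24 in granulosa-like and -3.81 in theca-like sums. CCND2 was higher in perivascular-like sums (1.55) and lower in endothelial-like sums (-1.81). Of 13 drivers of G1, 3 were higher and 4 lower for granulosa-like, 4 and 1 for theca-like, 1 and 2 for stromal-like, 3 and 1 for perivascular-like, 2 and 2 for endothelial-like and 4 and 3 for immune-like sums. The list of 13 drivers also holds E2F7, a repressor. Of 13 inhibitors, 6 were higher and 3 lower in each of perivascular-like, endothelial-like and immune-like sums, 1 and 5 in granulosa-like, 1 and 7 in theca-like and 0 and 2 in stromal-like sums. In theca-like sums CDKN1A was at -1.91 and CDKN1C at 1.76, and in immune-like sums CDKN1C was at -1.72.

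Between HLS and LLS ewes no member passed edgeR's test in any type, and DESeq2 called 0 members as well. All 37 members were tested in 5 types and 33 in immune-like sums, where CDC6, ESCO2, CDK1 and KIF20A fell under the filter, and 0% of all genes were called by edgeR in each type. The number of members with an unadjusted p under 0.05 was 0 in 5 types, where 1.27% to 4.56% of all genes had one, and 6 in immune-like sums (18.2% of members, 4.91% of all genes). The median log2 difference of the S genes was 0.48 in granulosa-like sums and that of the G2/M genes was 0.24, and 34 of 37 members lay above 0 (29 with library totals in place of TMM factors, which shifted the median of all genes by -0.17). It was -0.43 and -0.41 for perivascular-like sums, where all 37 members lay below 0 (36 by DESeq2). It was -0.35 and -0.07 for theca-like (0.00 for the G2/M genes by DESeq2), 0.21 and 0.03 for stromal-like (-0.02 for the G2/M genes with library totals), -0.06 and -0.36 for endothelial-like and -0.05 and 0.61 for immune-like sums, while the median over all genes lay between -0.01 and 0.01 in the 6 types. The members share the same ewes, so that the counts of members above or below 0 are not independent. In perivascular-like sums LLS ewe 3 stood apart for TOP2A (369 CPM, nearest ewe 145). In granulosa-like sums HLS ewe 2 stood apart for MCM5 (55.7 CPM, nearest ewe 26.0). The HLS minus LLS difference in cycling share changed sign in these types without the ewe named. How far the counts rest on these ewes was not tested. On simulated granulosa-like sums of this design edgeR's test recovered 5.88% of genes changed 2-fold and 83.7% of those changed 4-fold, and the other types were not simulated.

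The 3 HLS and 3 LLS values of a member overlapped in all cases but 4, which were in immune-like sums, where 9.42% of all genes did not overlap. CCNA2, the cyclin of S phase and G2, had 14.5 ± 4.72 CPM in HLS and 5.26 ± 2.03 in LLS (SD, n = 3 each), a log2 difference of 1.48 with an edgeR adjusted p of 0.815. CDC20 (1.5) and KIF23 (0.63) were also above, and RRM2 (-0.98) was below LLS, each with an edgeR adjusted p of 0.929. For the other types the number of members was 0, while 13.4% (granulosa-like), 9.79% (theca-like), 9% (stromal-like), 8.46% (perivascular-like) and 4.65% (endothelial-like) of all genes did not overlap.

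Cycling barcodes were then compared with the other barcodes of the same type and ewe by edgeR with the ewe as a block, in ewes with at least 10 cycling barcodes. Of all genes, 13.9% were higher in cycling barcodes and 13.3% lower for granulosa-like, 9.67% and 7.46% for theca-like, and 19.3% and 21.7% for stromal-like sums. The shares were 10.8% and 14.8% for perivascular-like, 16.1% and 19.6% for endothelial-like, and 4.82% and 6.24% for immune-like sums. As a description, all 15 S members lay above 0 in each type, with medians of 1.99 (perivascular-like) to 2.71 (immune-like) on the log2 scale. ESCO2, which acts on cohesin, had a log2 difference of 4.89 to 6.07, PCLAF of 4.56 to 5.65, TYMS of 2.61 to 3.25, PCNA of 1.58 to 2.36 and MCM5 of 1.41 to 2.5.

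Lists of other cell cycle genes that the call did not use gave the following counts. Of 35 other G2/M genes measured, 35 were higher in granulosa-like, theca-like, stromal-like and perivascular-like and 34 in endothelial-like sums, and 29 of 33 tested were higher in immune-like sums. KIF2C, a kinesin that trims microtubules, and HMMR, a spindle protein, were higher by 5.57 to 7.29 and by 5.87 to 7.06 in the 6 types. Of 29 other S genes, 22, 27, 27, 25 and 27 were higher in the first 5 types, and 17 of 27 in immune-like sums. E2F8, a repressor made in S phase, was higher by 4.12 to 6.11. UNG, a DNA repair glycosylase, was the only gene of both lists that was lower in any type (log2 difference -0.38 in stromal-like sums).

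Of the drivers of the passage from G1 into S and beyond, 6 of 10 tested were higher and 1 lower for granulosa-like, 7 and 0 of 12 for theca-like, 10 and 2 of 13 for stromal-like, 8 and 0 of 13 for perivascular-like, 9 and 0 of 13 for endothelial-like and 5 and 1 of 10 for immune-like sums. These counts include E2F7, a repressor like E2F8, which was higher in 5 of 6 types. FOXM1 and MYBL2, transcription factors of the late cycle, were higher in 6 of 6 types, by 4.87 to 7.53 and by 3.3 to 4.39. The kinases CDK2 and CDK4 were higher in 6 of 6 types, CDK4 by 0.47 to 1.39. The cyclins of the D group, which answer to growth signals, differed in direction. CCND2 was higher in granulosa-like (2.30) and perivascular-like sums (0.58) and lower in stromal-like (-0.59) and immune-like sums (-1.88). CCND1 was lower in stromal-like sums (-2.40), and CCND3 was lower in granulosa-like (-2.27) and higher in stromal-like sums (0.68). No test of the difference between types was made here.

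Among the inhibitors of the cycle the genes split. CDKN2C, which binds CDK4 and CDK6, was higher in 6 of 6 types, by 1.21 to 2.30, CDKN2D in 5 and RBL1, a relative of the retinoblastoma protein, in 5. CDKN1C, which encodes the inhibitor p57, was lower in 6 of 6 types (-2.58 to -0.50), and GADD45A, a stress gene, in 6 (-1.39 to -0.47). CDKN1A, which encodes the inhibitor p21, and BTG2 were lower in 5 each. CDKN1B passed in 0 of 6 types and RB1 in 0 of 6.

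**Figure D5:**
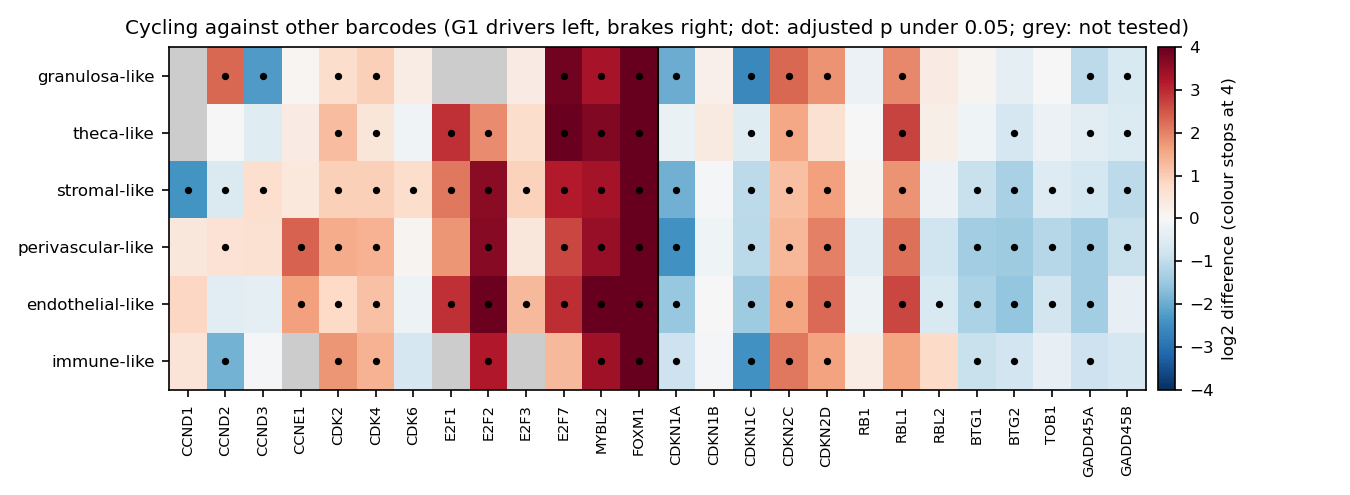
Each cell gives the log2 difference between cycling and other barcodes of a type for 13 drivers (left of the line) and 13 inhibitors, with a dot where the adjusted p was under 0.05 and grey where the gene was not tested. The drivers include E2F7, a repressor. FOXM1 and MYBL2 are higher in all rows, CDKN1C and GADD45A are lower in all rows, and the cyclin D columns differ in sign between rows.

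Within 1 cluster of each type, an alternative chosen after seeing the data that could not be fitted for immune-like barcodes, CCND2 in granulosa-like cluster 8 was higher by 1.27 (edgeR adjusted p = 0.000257). CDKN1A in endothelial-like cluster 0 had a difference of -0.19 (edgeR adjusted p = 0.0759) beside -1.52 over all endothelial-like barcodes. CCND1 had -0.82 in that cluster beside 0.83 (edgeR adjusted p = 0.0767) over all. Only ewes with at least 10 cycling barcodes in the cluster were used. They were 4 ewes in cluster 8 and 3 in cluster 0, against 5 and 6 over all granulosa-like and endothelial-like barcodes.

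The markers of the types moved as well. All 10 granulosa markers were higher in cycling granulosa-like barcodes, with summed levels of 4643 to 11829 CPM against 1128 to 3025 in the others, and 6 of 10 were higher within cluster 8, among them INHBA (2.34), FST (1.69) and INHA (1.68), which encode activin and inhibin subunits and follistatin. Of 6 theca markers, 5 were lower in cycling theca-like barcodes, among them STAR, which carries cholesterol into the mitochondrion (-2.68), and CYP17A1, which makes androgens (-1.04). Of 7 stromal markers 6 were lower, with DPT, which encodes a matrix protein, at -4.26, and of 10 endothelial markers 7 were lower, with VWF at -1.54. Cycling and other barcodes lay partly in different clusters, and within stromal-like cluster 4 the count was 4 of 7 (DPT -2.42) and within endothelial-like cluster 0 it was 3 of 10 (VWF -0.55). These 2 fits used 5 and 3 ewes, against 6 over all barcodes of each of these types. Of 9 perivascular markers 4 were lower, among them MYH11 at -1.85, and within perivascular-like cluster 10 the count was 3 of 9 (MYH11 -0.72). Of 12 immune markers 6 were lower and 1, CORO1A, higher.

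Markers of other types moved in all 6 comparisons. In stromal-like barcodes 3 of 5 epithelial markers tested were higher in cycling barcodes (KRT18 1.86, KRT19 1.2, KRT8 1.04) and 1 was lower, 2 of 5 theca markers were higher, and 6 of 9 perivascular and 6 of 10 endothelial markers were lower. Within stromal-like cluster 4 none of the epithelial markers was higher and 1 of 5 was lower. Of 5 theca markers tested there 0 were higher and 2 lower, while 2 of 7 perivascular and 0 of 9 endothelial markers were lower. In granulosa-like barcodes 4 of 5 stromal markers were lower, with LUM at -3.47, and within cluster 8 the count was also 4 of 5 (LUM -2.75). In theca-like barcodes the summed stromal markers were 4031 to 4985 CPM in cycling against 2901 to 4640 in other barcodes, with PDGFRA (0.72) and COL1A1 (0.42) higher and DCN (-0.42) lower of 6 tested, and none of the 7 was at 0. In endothelial-like barcodes the summed immune markers were 10.5 to 35.9 against 5.52 to 17.7, with 2 of 9 tested higher, CD53 and CORO1A. Within endothelial-like cluster 0 both lay above 0 but did not pass (0.49 and 0.88, edgeR adjusted p = 0.271 and 0.145). The part of other cell types in these differences was not tested.

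Over the 36 sums of 1 type in 1 ewe, the genes outside the list whose log2 level was most like the mean of the 22 G2/M genes were KIF4A (Pearson r = 0.956), KIFC1 (0.953), ASPM (0.951), HMMR (0.945), PRC1 (0.934), KIF15 (0.926), CKAP2 (0.913), MAD2L1 (0.912) and CDCA2 (0.907), out of 17568 genes. The sums of 1 ewe share a library, and no test was made. Among the members, CENPF (0.971) and CENPE (0.968) were most like the other G2/M genes, and CDT1 (0.556), PCNA (0.580) and MCM4 (0.584) least.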

How the data were processed

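Single-cell libraries of 6 ovaries were prepared with the 10x Chromium 3' kit. Reads were processed by the authors with Cell Ranger and STAR, and the deposited files held raw UMI counts per gene and barcode, without normalization. The genome build is not given in the sources used here. The tools are named in the submitters' processing notes.

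The 37 members and all gene lists were chosen with earlier results of these data known. A barcode was kept with at least 1000 UMI and 200 genes, with log10 genes at least 0.7 times log10 UMI, and with at most 10% mitochondrial and 5% haemoglobin UMI. Doublets were called from simulated doublets (2 for each cell, at 0.8% of barcodes for every 1000 cells) and not with the study's caller, and 5.22% of the barcodes past the filters were removed. Cell cycle genes were left out of the 2000 variable genes, 30 components, 20 neighbours and Leiden clustering (leidenalg 0.10.2, resolution 0.8). The variable genes and components were set on the 18727 barcodes without any UMI of the G2/M genes, and all retained barcodes were then placed on them. A cluster was named where at least 4 markers were detected with a score of at least 0.33 and 1.25 times the next type's. It still stayed unnamed when it was shallow and none of its own markers led, as for cluster 24. The same held when markers of another type outnumbered its own among the leading genes. These limits were set after the clusters had been seen.

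Thinning to 2000 UMI used a fixed seed. Shares were taken per ewe and type with at least 50 barcodes, and S shares with at least 10 cycling barcodes. Sums needed at least 20 cells. edgeR 4.0.16 (limma 3.58.1, R 4.3.3) used TMM factors and a filter on low counts, and DESeq2 1.42.0 was an alternative. Python 3.11.15, NumPy 2.4.6, SciPy 1.17.1 and scikit-learn 1.9.0 were used. Calls were made at a Benjamini-Hochberg adjusted p under 0.05. The edgeR script was tested on simulated data. Nothing in the labels pairs ewes of the 2 groups, and same-numbered ewes did not deviate together (correlations from -0.337 to 0.263).

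All 37 members could be named. MKI67, TOP2A, CCNB1, CDK1, PCNA, MCM5, TYMS and PCLAF were shown in full, and for the other lists up to 4 genes with the largest difference past the threshold were named. Regulators named by their number of types, markers and the alternatives described as such were chosen after their values were seen. Other alternatives were other depths, limits of G2/M UMI, resolutions, a mitochondrial limit of 20%, kept doublets, no TMM factors, no filter, no ewe block, a replicate block and each ewe left out. Promoter motifs were not analysed here. Of the genes most like the G2/M genes, 1 is not reported here.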

Additional observations from a re-analysis of the deposited data

Results flagged for a closer look

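A sample stood far from the others of its type in 5 of 60 sets of up to 6 ewes (8.33%), and chance alone flags about 1 in 20. The theca-like S share, with 3 ewes, is counted among the sets but was too small to be flagged. PCNA had 96.5 CPM (UMI per 1000000 UMI of a type's sum in 1 ewe) in granulosa-like sums of HLS ewe 2, and the nearest ewe had 69.6. MCM5 had 55.7 in the same sum, and the nearest ewe had 26.0. LLS ewe 3 stood apart for PCNA in theca-like sums (77.6, nearest 52.7), for PCNA in perivascular-like sums (166, nearest 94.1) and for TOP2A in perivascular-like sums (369, nearest 145). Both ewes also had the highest share of cycling barcodes of those types.

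Cycling barcodes also occurred outside the 6 types, in barcodes that no comparison used. B lineage-like barcodes held 8 cycling of 245 (3.27%). Epithelial-like barcodes held 11 of 318 (3.46%). Unnamed clusters held 56 of 524 (10.7%), and 53 of these 56 were in cluster 17. These 53 were 20.5% of the 259 barcodes deep enough for thinning among its 511 cells.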

How the results depend on the processing

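The tests of pairs of types could hardly pass at this number of ewes and say nothing of stability. Without thinning the mean shares were 14.7% (granulosa-like), 26.5% (theca-like), 12.6% (stromal-like), 10.2% (perivascular-like), 15.2% (endothelial-like) and 6.64% (immune-like). Thinned to 4000 UMI, with all barcodes under 4000 UMI left out, they were 11.5% (stromal-like), 14.7% (perivascular-like) and 7.63% (immune-like). With at least 2 G2/M UMI the mean was 6.77% (immune-like), and with components from all barcodes and genes it was 1.52% (theca-like). HLS minus LLS turned to 1.98 (mitochondrial limit 20%) and 2.17 percentage points (0.5 times the resolution) in theca-like, to 0.0611 (no thinning) in endothelial-like and to 0.526 (1000 UMI), 1.38 (no thinning), 0.651 (at least 2 UMI) and 0.283 (at least 5 UMI) in immune-like barcodes. Leaving out each ewe gave -1.71 to 5.33 (granulosa-like), -3.14 to 2.93 (theca-like), -3.81 to 2.54 (stromal-like), -5.15 to 0.130 (perivascular-like), -3.44 to 0.787 (endothelial-like) and -1.62 to 0.586 (immune-like). Members called higher and lower were 8 and 2 in granulosa-like, with 10 lower in theca-like and 20 lower in immune-like sums without TMM factors, 10 lower in theca-like sums by DESeq2, and 2 higher in endothelial-like sums without the filter. Leaving out TMM factors shifted the median of all genes by 0.14 in perivascular-like and -0.26 in immune-like sums against the other types, by -0.16 in theca-like sums between HLS and LLS, and by 0.22 in immune-like and 0.10 in perivascular-like sums between cycling and other barcodes. Without the ewe block they were 1 higher and 2 lower in granulosa-like, 2 lower in theca-like and 2 higher in stromal-like sums. Without the barcodes called cycling, with the shallow ones kept, they were 1 higher in granulosa-like and 2 higher and 11 lower in theca-like sums. They were 2 higher and 1 lower in stromal-like and 1 lower in perivascular-like sums. Endothelial-like sums had 3 higher and 4 lower, and immune-like sums had 5 higher and 0 lower. TOP2A (0.20), CENPF (0.55) and CENPE (0.33) reversed in immune-like sums. Leaving out each ewe gave 1 to 7 higher and 0 to 7 lower (granulosa-like), 0 to 1 higher and 2 to 11 lower (theca-like), 3 to 13 higher (stromal-like), 3 to 8 higher and 0 to 1 lower (perivascular-like), 0 to 1 higher (endothelial-like) and 2 to 12 lower (immune-like). Of the 37 named differences 35 kept their call without TMM factors, 36 by DESeq2 and 20 without the ewe block. Between HLS and LLS, CCNA2 passed in immune-like sums without the filter, the 1 member called under any alternative. Of the genes of the 4 other lists, 8 were lower within granulosa-like cluster 8, and in immune-like sums 3 without TMM factors, 2 by DESeq2 and 1 to 4 without each ewe. The causes were not tested. With a replicate block the differences in share stay the same by arithmetic (2.08 in granulosa-like barcodes), so that this says nothing of stability. With that block 0 members were called, and at most 2 of 6 ewes correlated best with their own number.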
